A study of Rattus norvegicus with 180 samples.

Results

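The abdominal aorta and the abdominal vein of the same 3 rats were compared across all miRNAs of one array design. The members were the 3 arrays titled aorta and the 3 arrays titled vein, 6 of the 180 arrays of a rat organ atlas, and they were paired by the number of the animal. All 6 came from animals 4, 5 and 6, male Sprague-Dawley rats that were 10 weeks of age, untreated, and perfused with saline under ether anaesthesia to clear the blood from their organs. The sample titles name only aorta and vein, the list of organs in the study adds that both are abdominal, and neither says which abdominal vein was taken nor whether surrounding tissue was removed, so each value is that of a whole vessel piece. A signal from such a piece cannot tell fewer cells of a type from less RNA per cell.

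MicroRNAs (miRNAs) are short RNAs that guide the silencing machinery to messenger RNAs, mainly through their seed, bases 2 to 8. The wall of an artery holds a thick layer of smooth muscle and elastic sheets, the wall of a vein a thinner one, and both are lined by endothelium. miR-143 and miR-145, made from neighbouring hairpins, are characteristic of smooth muscle, and miR-126, encoded inside the gene Egfl7, is characteristic of endothelium. The miR-10 and miR-196 families lie among the HOX genes, which cells express according to their position along the body axis. Red cell precursors are rich in miR-451, and white blood cells in miR-142, miR-150 and miR-223.

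The mature sequences of the miRNAs on which the comparison turned are given 5′ to 3′ from RefSeq (assembly GRCr8), with the seed in capitals. Array names follow older miRBase releases, so each was assigned to an arm by its later name, and 30 of 31 such names were found in the RefSeq table. The first set holds the miR-196 family, which was above background in the vein only. Its 3 members share 1 seed.
rno-miR-196a: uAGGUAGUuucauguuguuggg
rno-miR-196b: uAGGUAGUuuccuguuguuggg
rno-miR-196c: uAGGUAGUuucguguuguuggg
RefSeq places them at chr7:135988900-135988921 on the plus strand between Hoxc10 and Hoxc9, at chr4:82661149-82661170 on the minus strand between Hoxa9 and Hoxa10, and at chr10:81727561-81727582 on the plus strand between Hoxb13 and Hoxb9.

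The second set holds the markers of the vessel wall, the endothelial pair first and the smooth muscle pair after it.
rno-miR-126: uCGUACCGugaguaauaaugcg
rno-miR-126*: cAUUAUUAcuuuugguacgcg
rno-miR-143: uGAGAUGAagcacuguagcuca
rno-miR-145: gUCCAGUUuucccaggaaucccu
Both arms of miR-126 come from 1 hairpin on the plus strand of chromosome 3, the main arm at chr3:29813219-29813240. miR-143 (chr18:57371373-57371394) and miR-145 (chr18:57370033-57370055) are both on the minus strand.

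The third set holds both arms of 2 hairpins, which with miR-145 had the smallest p among the miRNAs that were higher in the aorta in all 3 animals.
rno-miR-31: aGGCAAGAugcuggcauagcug
rno-miR-31*: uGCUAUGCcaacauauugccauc
rno-miR-140: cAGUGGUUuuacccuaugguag
rno-miR-140*: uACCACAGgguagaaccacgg
miR-31 is at chr5:108714906-108714927 on the minus strand, and miR-140 is at chr19:52375314-52375335 on the plus strand inside the gene Wwp2.

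The last set holds further miRNAs called higher in the vein, chosen to show which of them share a seed.
rno-miR-92a: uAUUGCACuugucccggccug
rno-miR-25: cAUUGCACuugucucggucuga
rno-miR-20a: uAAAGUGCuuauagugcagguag
rno-miR-93: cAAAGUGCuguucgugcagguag
rno-miR-19b: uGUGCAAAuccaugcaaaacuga
rno-miR-146a: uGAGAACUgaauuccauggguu
rno-miR-146b: uGAGAACUgaauuccauaggcugu
rno-miR-322: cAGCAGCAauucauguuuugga
rno-miR-451: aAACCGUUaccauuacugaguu
miR-92a shares its seed with miR-25, miR-20a with miR-93, and miR-146a with miR-146b. The seed of miR-20a is also that of miR-20b-5p, not shown here, which was called higher in the vein too. Cross-hybridization between such close relatives was not tested.

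Of the 717 miRNAs on the array, 149 were detected on all 3 arrays of the aorta or of the vein and were tested, and 529 were detected on none of the 6 arrays. Detection required that more than 50% of the usable spots for a miRNA exceeded background clearly. Each array held between 137 and 161 detected miRNAs, the fewest in the aorta of animal 6. That array stood apart. Its log2 signals correlated with those of the other aortas at r = 0.93 and r = 0.92, while the aortas of animals 4 and 5 correlated at r = 0.995 and the vein arrays at 0.98 or above. miR-1224, named with miR-494_v15.0 after its values were seen, was measured there at 6497 scaled units against 76.2 and 63.6 in the other aortas, and miR-494_v15.0 at 2720 against 42.3 and 27.9. Both are highest in the pancreas among the 55 organs. The count of calls without animal 6 is given below, and the value without it beside many of the single miRNAs.

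The choice of scaling set the zero point. Signals were scaled on the 75th percentile of the 37 miRNAs detected on all 180 arrays, and on this scale the median log2 difference, aorta minus vein, over the 149 miRNAs was -0.47. It was -0.30 when the 119 miRNAs detected on all 6 arrays gave the percentile, -0.02 when the median ratio between arrays was set to 0, 0.01 after quantile normalization, 0.17 in the authors' own normalized table and 0.53 when all 717 miRNAs gave the percentile. Each difference below is on the first scale, and a value under median ratio scaling, where given beside it, can be read relative to that general shift.

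On the first scale more miRNAs were higher in the vein than in the aorta. In a paired fit (limma, Benjamini-Hochberg adjusted p under 0.05, n = 3 rats) 32 of 149 were called higher in the vein, a background of 21.5% of those tested, and 1 was called higher in the aorta, 0.671%. Some of the 32 passed the filter through the vein alone. When only the 119 miRNAs detected on all 6 arrays were tested, 25 were called higher in the vein and 1 in the aorta. Of these 25, 21 were among the 32. All 32 were lower in the aorta in each of the 3 animals, and so were 89 of all 149 miRNAs tested. This agreement is thus no further support for the calls. Under median ratio scaling 29 (19.5%) were higher in the vein and 16 (10.7%) in the aorta, and 25 of the 29 were among the 32. With the percentile over all 717 miRNAs the split turned to 9 and 41. Of the 32, 24 kept their sign under all 6 scalings. The other 8, some of them named here after their values were seen, were miR-30a*, miR-25, miR-434, miR-127, miR-500, miR-29a, miR-93 and miR-872, which were higher in the aorta under at least 1 of them. Of the 32, 6 were called under all 6 scalings: miR-196b, miR-196a, miR-322, miR-451, miR-126 and miR-203. Among these, miR-196b, miR-196a and miR-203 passed the filter through the vein alone, and on the first scale all their aortas were set to the floor. miR-31, the call in the aorta, was also called under all 6. Leaving out animal 6 kept 18 of the 32 calls and lost the call of miR-31. Leaving out animal 4 left only miR-196a and miR-196b, and leaving out animal 5 left no call (lowest adjusted p = 0.073), with 28 miRNAs at an unadjusted p under 0.05.

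**Figure D1:**
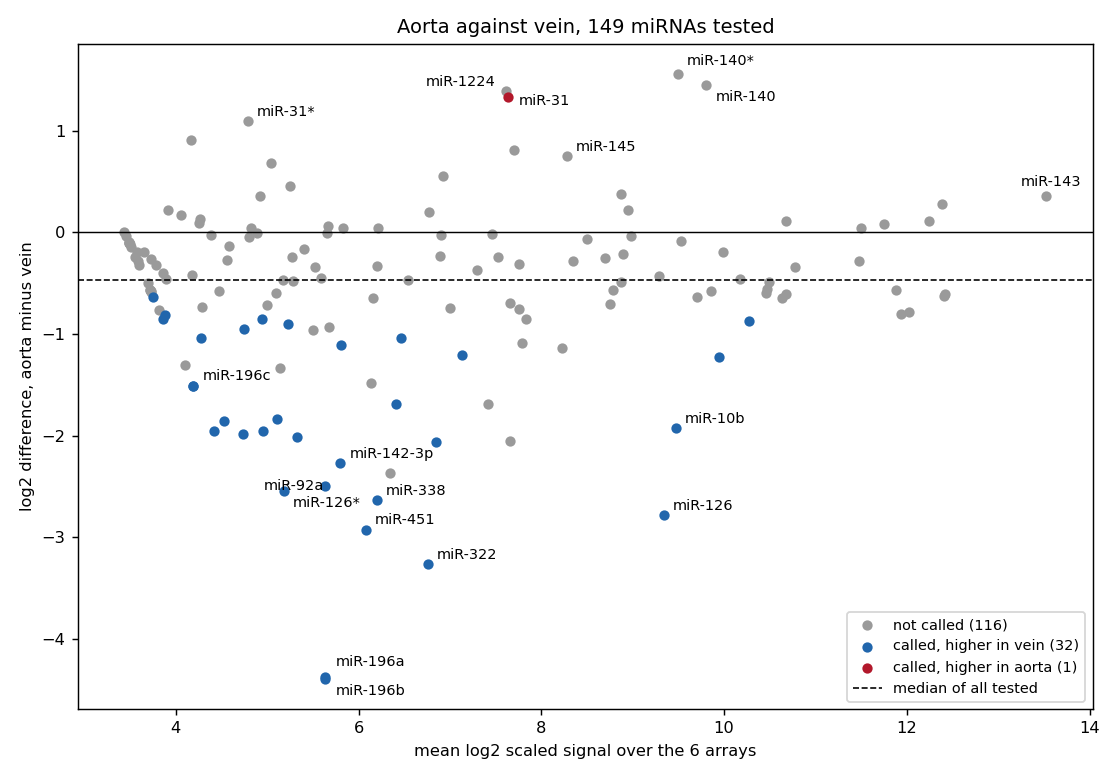
Log2 difference, aorta minus vein (vertical axis), against the mean log2 scaled signal over the 6 arrays (horizontal axis) for the 149 miRNAs tested, 1 point each. Blue points were called higher in the vein (32), the red point (miR-31) higher in the aorta, grey points were not called, and the dashed line is the median of all tested, -0.47.

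Of the miR-196 family, miR-196b and miR-196a differed most among all miRNAs tested. miR-196b read 277, 206.4 and 205.7 scaled units in the veins of animals 4, 5 and 6, and 2.45, 2.38 and 2.81 in their aortas, where it was not well above background on any array. Its mean of 230 ± 40.9 (SD, n = 3) in the vein was at least 48.7-fold higher than in the aorta, a bound taken against the lowest signal that counted as detected on each aorta array. miR-196a read 265, 223.3 and 193 in the veins and 1.18, 0.77 and 2.07 in the aortas, at least 48.3-fold higher in the vein. In the fit, where signals under 10.8 were set to that floor, miR-196b differed by -4.39 ± 0.16 (SE) on the log2 scale (adjusted p = 0.0017) and miR-196a by -4.38 ± 0.16 (adjusted p = 0.0017). The floor limits these differences, which were -4.15 and -4.14 under median ratio scaling. Both miRNAs passed the filter through the vein alone. With all 3 aortas set to the floor, the aortas add no spread of their own to the SE and p. The values of the 2 vessels lay far apart in every animal. Both were also called without animal 6 (adjusted p = 0.027 and 0.021), a result with the same limit and no further support.

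miR-196c, the dimmest of the family, read 39.9, 23.4 and 31.5 in the veins and between 0.467 and 2.28 in the aortas, at least 6.61-fold higher in the vein (adjusted p = 0.024). Of its 4 probe sequences 3 gave this sign and the other gave a difference of 0. Without animal 6 its adjusted p was 0.065.

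miR-10b, encoded within the span of Hoxd4 on chromosome 3 (chr3:80035886-80035907), was well above background in both vessels. It read 483, 499.6 and 199.2 in the aortas and 1499, 1235 and 1423 in the veins, so that every vein lay above every aorta. The difference was -1.93 ± 0.36 (adjusted p = 0.041) and -1.44 under median ratio scaling (adjusted p = 0.043). Without animal 6 it was -1.47 (adjusted p = 0.050, just under the threshold). It was not called with quantile normalization, with all 717 miRNAs for the percentile or in the authors' table. Of the 11 HOX cluster miRNAs on the array 5 were tested, 4 were called higher in the vein, beside 21.5% of all miRNAs tested, and 6 were detected on no array of either vessel. The miR-196 members passed the filter through the vein alone, so that this count is no support for the list, and of the members detected in both vessels 1 of 2 was called. The fifth, miR-10a-5p, named here after its values were seen, differed by -0.58 ± 0.26 (adjusted p = 0.18) and changed sign between scalings.

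The endothelial marker miR-126 was several times higher in the vein. It read 311, 347 and 140.4 scaled units in the aortas of animals 4, 5 and 6, and 1659, 1965 and 1524 in their veins. The means were 266 ± 111 and 1716 ± 226 (SD, n = 3). All 3 veins lay well above all 3 aortas, with the aorta of animal 6 lowest. The difference was -2.78 ± 0.27 (6.89-fold, adjusted p = 0.017), -2.29 under median ratio scaling (adjusted p = 0.0063) and -2.46 without animal 6 (adjusted p = 0.021). Its partner arm miR-126* read 20.4, 15.2 and 6.54 in the aortas, the last of them under the floor, and 105, 74.8 and 85.6 in the veins. It differed by -2.55 ± 0.20 (adjusted p = 0.011). The difference was -2.26 under median ratio scaling (adjusted p = 0.013) and -2.33 without animal 6 (adjusted p = 0.021). Both arms were thus called, beside 21.5% of all miRNAs tested, but miR-126* was detected on 2 of 3 aortas and passed the filter through the vein alone, so that the count of this pair is no support for the list.

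The smooth muscle markers did not pass the test. miR-143 read 15887, 14649 and 10231 in the aortas and 14474, 7215 and 10933 in the veins. The vessels overlapped, and animal 6 had slightly more in the vein. The difference was 0.35 ± 0.28 (adjusted p = 0.39, 95% interval from -0.45 to 1.16). It was 0.84 under median ratio scaling (adjusted p = 0.070) and 0.00 after quantile normalization, where the brightest miRNA of each array takes 1 common value, 0.58 without animal 6 (adjusted p = 0.26) and 0.02 without animal 5 (adjusted p = 0.97). miR-145 read 456.3, 245 and 581 in the aortas and 407, 138 and 244 in the veins. The aorta was higher in all 3 animals, although the ranges overlapped. The difference was 0.75 ± 0.26 (adjusted p = 0.12, 95% interval from -0.01 to 1.51) 1.24 under median ratio scaling (adjusted p = 0.093) and 0.50 without animal 6 (adjusted p = 0.22). Both were called higher in the aorta only with the percentile over all 717 miRNAs. The other 4 members of the smooth muscle list were not tested, and 2 of these were detected on no array.

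**Figure D2:**
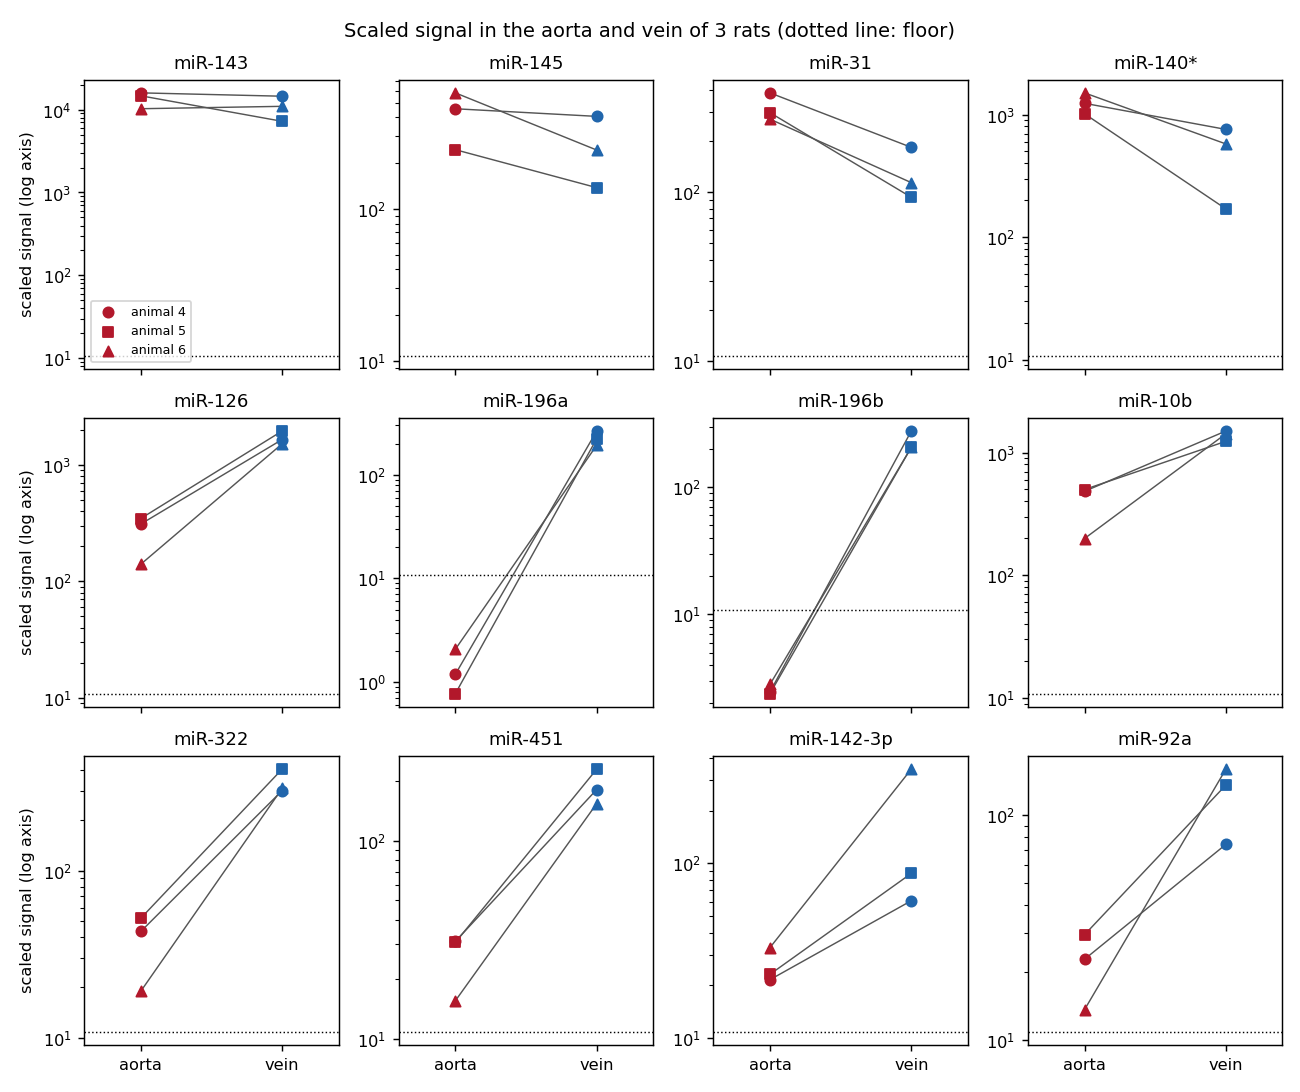
Scaled signal (vertical log axes, each panel on its own range) in the aorta (red) and vein (blue) of animals 4, 5 and 6 for 12 miRNAs, with lines joining the vessels of 1 animal and a dotted line at the floor of 10.8. miR-31 and miR-140* fall from aorta to vein in each animal, miR-196a and miR-196b lie under the floor in all 3 aortas, and miR-126, miR-10b, miR-322, miR-451, miR-142-3p and miR-92a lie higher in every vein.

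miR-31 was the one miRNA called higher in the aorta. It is known from vascular smooth muscle among other cells, and read 387, 296 and 271 in the aortas against 184, 93.4 and 114 in the veins. Every aorta lay above every vein. The difference was 1.33 ± 0.18 (2.51-fold, adjusted p = 0.024) and 1.82 under median ratio scaling (adjusted p = 0.019). The size was the same without animal 6 (1.37), with an adjusted p of 0.064. Its partner arm miR-31* read 58.7, 46.5 and 24.2 in the aortas and 27.5, 14.9 and 16.5 in the veins. The aorta was higher in each animal, and the aorta of animal 6 lay within the range of the veins. The difference was 1.10 ± 0.26 (adjusted p = 0.060) 1.59 under median ratio scaling (adjusted p = 0.018) and 1.37 without animal 6 (adjusted p = 0.061).

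Both arms of miR-140, known for its abundance in cartilage, were higher in the aorta of each animal and were not called on the main scale. miR-140* read 1235, 1014 and 1502 in the aortas and 756, 169.9 and 576 in the veins. miR-140 read 1708, 1728 and 1096 in the aortas and 885, 229 and 784 in the veins. Neither arm overlapped between vessels, and the vein of animal 5 was the lowest for both. The differences were 1.56 ± 0.42 (adjusted p = 0.078) for miR-140* and 1.45 ± 0.56 (adjusted p = 0.15) for miR-140. Under median ratio scaling they were 2.05 (adjusted p = 0.049) and 1.94 (adjusted p = 0.070). Without animal 6 the differences were 1.64 for miR-140* (adjusted p = 0.18) and 1.93 for miR-140 (adjusted p = 0.16). Without animal 5 that of miR-140 was 0.72 (adjusted p = 0.30).

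miR-322 and miR-451 were the next most different in favour of the vein. miR-322, a member of the miR-15 and miR-16 family encoded on chromosome X (chrX:137726198-137726219, minus strand), read 43.2, 51.8 and 18.9 in the aortas and 301, 405 and 310.5 in the veins. All veins lay above all aortas. The difference was -3.27 ± 0.31 (9.63-fold, adjusted p = 0.017), -2.78 under median ratio scaling (adjusted p = 0.0063) and -2.88 without animal 6 (adjusted p = 0.021). miR-542-5p, from the same cluster of hairpins, read 17.9, 22.7 and 18.3 in the veins and was not well above background in any aorta, at least 4.18-fold higher in the vein (adjusted p = 0.033, 0.055 under median ratio scaling and 0.063 without animal 6). miR-542-3p and miR-450a_v15.0 were also detected on all 3 veins and on no aorta, at least 2.49-fold and 2.497-fold higher in the vein, with no call in the fit, where their aortas were set to the floor (adjusted p = 0.59 and 0.61). Of 11 miRNAs of this cluster 4 were tested and 2 were called, beside 21.5% of all miRNAs tested. All 4 except miR-322 passed the filter through the vein alone, so that this count is no support for the list. In the miR-15 and miR-16 family all 5 members were tested and miR-322 was the only call, and the family median was -0.56 beside -0.47 for all miRNAs tested, and -0.29 beside -0.35 without animal 6.

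Of the blood cell lists, 1 of 1 tested erythroid and 2 of 3 tested leukocyte miRNAs were called higher in the vein, beside 21.5% of all miRNAs tested. miR-451 read 31.1, 30.7 and 15.5 in the aortas and 182, 231 and 154 in the veins, with no overlap. The difference was -2.93 ± 0.20 (7.595-fold, adjusted p = 0.010), -2.43 under median ratio scaling (adjusted p = 0.0038) and -2.73 without animal 6 (adjusted p = 0.041). miR-144, which is made from the same transcript, was not detected on any of the 6 arrays. Among leukocyte markers, miR-142-3p read 21.5, 23.1 and 32.9 in the aortas and 60.96, 87.4 and 346 in the veins. The vein of animal 6 was far above the other veins. The difference was -2.27 ± 0.44 (adjusted p = 0.043), and -1.71 without animal 6 (adjusted p = 0.050, just under the threshold). miR-223, a myeloid miRNA, differed by -1.69 ± 0.23 (adjusted p = 0.024), with means of 48.6 ± 13.3 in the aorta and 154 ± 26.0 in the vein. miR-150, a lymphocyte miRNA, differed by -2.37 ± 0.51 and missed the threshold (adjusted p = 0.0503), with 41.9, 46.6 and 23.1 in the aortas and 115, 185 and 295 in the veins. Under median ratio scaling it was called (-1.88, adjusted p = 0.046), as were all 3 tested leukocyte miRNAs. Without animal 6 the difference of miR-150 was -1.72 (adjusted p = 0.053).

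Summed over the 4 leukocyte markers, the signal ran from 92.9 to 130.05 in the aortas and from 310.1 to 824 in the veins. Summed over the erythroid pair it ran from 16.6 to 31.4 and from 157 to 233. The part of these cells in the other differences was not tested. miR-146a and miR-146b, which immune signalling induces and which share a seed, were both called higher in the vein, beside 21.5% of all miRNAs tested. miR-146b was detected on 2 of 3 aortas and passed the filter through the vein alone, so that the count of this pair is no support for the list. miR-146a read 64.4, 71.8 and 38.3 in the aortas and 191, 262 and 260.3 in the veins, a difference of -2.07 ± 0.29 (adjusted p = 0.024) and of -1.58 under median ratio scaling (adjusted p = 0.017). miR-146b differed by -1.86 ± 0.13 (adjusted p = 0.010) and by -1.83 without animal 6 (adjusted p = 0.041).

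The miR-17-92 and miR-106b-25 clusters, expressed with cell division, held 5 calls among 6 tested members, all higher in the vein, beside 21.5% of all miRNAs tested, and their median was -1.52 beside -0.47. miR-92a read 22.8, 29.4 and 13.6 in the aortas and 74.3, 137 and 161 in the veins. The difference was -2.50 ± 0.43 (adjusted p = 0.033) and -2.01 under median ratio scaling (adjusted p = 0.035). miR-19b differed by -2.02 ± 0.23 (adjusted p = 0.022), with means of 20.5 ± 5.71 in the aorta and 82.4 ± 19.0 in the vein. miR-20a differed by -1.99 ± 0.24 (adjusted p = 0.022), with means of 12.4 ± 4.69 and 54.7 ± 14.9. miR-25 and miR-93, from the second cluster, differed by -1.04 and -0.85 and were among the 8 calls whose sign depended on the scaling. Under median ratio scaling the differences were -1.53 for miR-19b and -1.68 for miR-20a. Without animal 6, miR-19b and miR-93 were called, and miR-92a, miR-20a and miR-25 were not (adjusted p from 0.051 to 0.053).

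miR-338, known from myelinating cells, read 52.8, 36.5 and 13.3 in the aortas and 141.2, 217 and 201 in the veins. Its difference of -2.64 ± 0.55 was the least precise among the 12 largest calls (adjusted p = 0.048), and it was not called without animal 6 (-1.995, adjusted p = 0.076) or without animal 4 (-3.24, adjusted p = 0.074). miR-203, an epithelial miRNA, was at a low level, with 29.3, 52.3 and 48.1 in the veins and 6.80, 10.4 and 1.41 in the aortas. It was detected on 2 of 3 aortas and passed the filter through the vein alone. In the fit all 3 aortas were set to the floor. The floor thus limits its difference of -1.95 ± 0.23 (adjusted p = 0.022), and the aortas add no spread of their own to the SE and p. It was not called without animal 6 (adjusted p = 0.065).

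**Figure D3:**
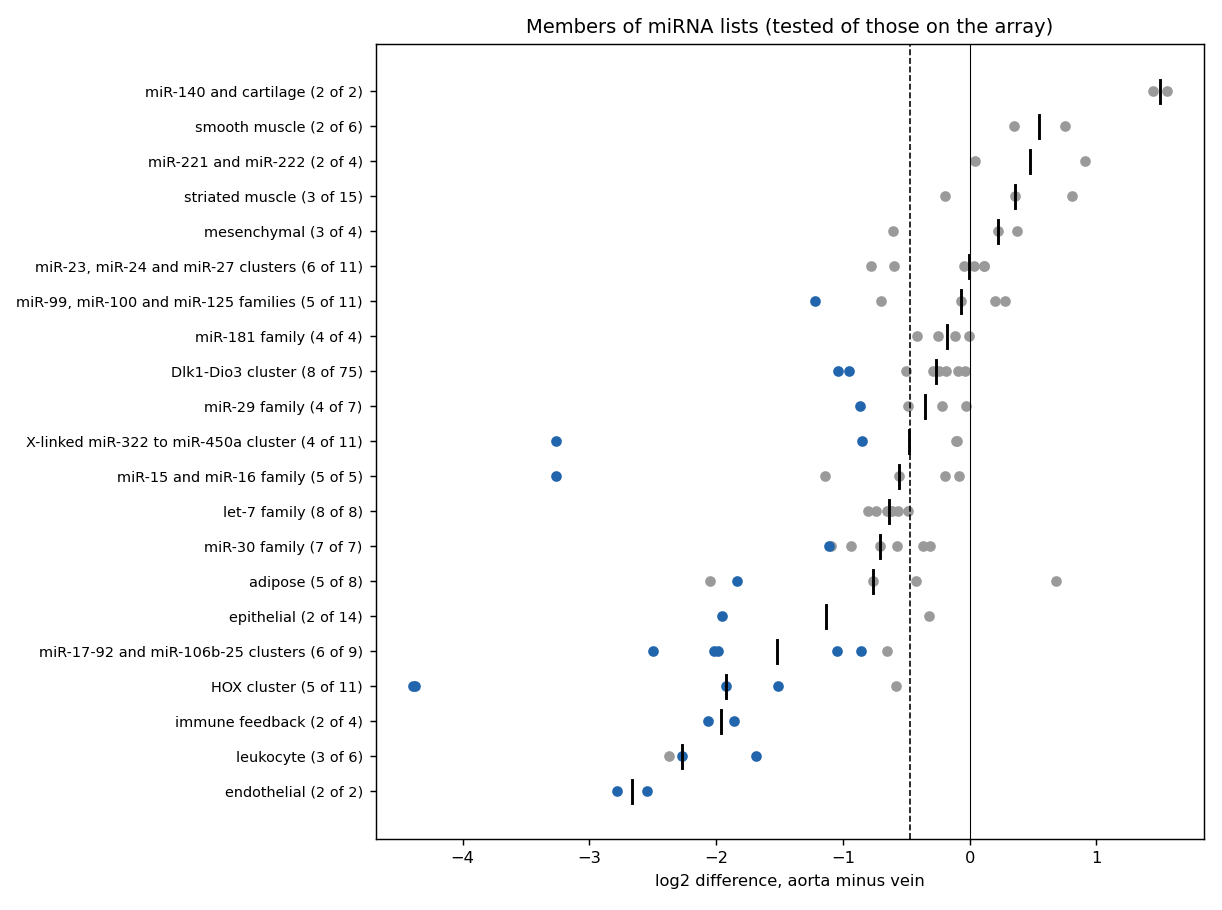
Log2 difference, aorta minus vein (horizontal axis), of the tested members of 21 lists with 2 or more tested members, 1 point per miRNA, blue where called higher in the vein and grey where not called. Thick ticks are list medians, the dashed line is the median of all 149 miRNAs (-0.47), and the leukocyte median lies at -2.27. The points of miR-126*, miR-146b, miR-203, miR-205_v15.0, miR-196a, miR-196b, miR-196c, miR-542-5p, miR-542-3p and miR-450a_v15.0, among others, were tested through their detection in the vein alone.

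In the lists that follow the share of members called lay near the 21.5% of all miRNAs tested, or no member was called. The let-7 family had 8 tested members and no call, with a median of -0.63, which was -0.33 without animal 6 beside -0.35 for all miRNAs tested. The miR-30 family had 1 call among 7, miR-30a*, and a median of -0.71. The miR-29 family had 1 among 4, miR-29a, and the Dlk1-Dio3 cluster, an imprinted group of 75 miRNAs on the array, had 2 among 8 tested, miR-434 and miR-127, of which miR-434 passed the filter through the vein alone. All of these called members are among those whose sign changed with the scaling, and without animal 6 miR-30a* (adjusted p = 0.064), miR-434 (adjusted p = 0.061) and miR-127 (adjusted p = 0.065) were not called. In the miR-99, miR-100 and miR-125 families 1 of 5 was called, miR-99a (-1.22 ± 0.16, adjusted p = 0.023). In the adipose list, of miRNAs abundant in fat, 1 of 5 was called, miR-378* (-1.84 ± 0.38, adjusted p = 0.048), a call that was lost without animal 6 (-1.37, adjusted p = 0.061) and under median ratio scaling (adjusted p = 0.061). miR-378 differed by -2.05 ± 0.45 (adjusted p = 0.051) and by -1.49 without animal 6 (adjusted p = 0.060). It was called higher in the vein under median ratio scaling (-1.56, adjusted p = 0.046). The mesenchymal list, with 3 tested members, had no call and a median of 0.22. Under median ratio scaling 2 of its members, miR-199a-5p (0.86) and miR-214 (0.71), were called higher in the aorta.

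Markers of other tissues bear on the purity of the pieces. The epithelial markers miR-200a, miR-200b, miR-200c, miR-141 and miR-429, the hepatocyte marker miR-122 and the neuronal markers miR-124 and miR-9 were detected on none of the 6 arrays. Other members of these lists were present at low levels. Of 14 epithelial miRNAs 10 were detected on no array, while miR-203 was called higher in the vein and miR-205_v15.0 was detected on all 3 veins, at 12.8 to 14.8, and on no aorta (at least 2.63-fold higher in the vein, with no call as all 3 aortas were set to the floor, adjusted p = 0.16). Of 9 neuronal miRNAs 7 were detected on no array, while miR-128 was detected on all 6, at 13.3 to 22.3 in the aortas and 24.9 to 29.1 in the veins (-0.58 ± 0.21, adjusted p = 0.13). Of 8 hepatic, renal and intestinal miRNAs 7 were detected on no array and none was tested. The part of such cells in the differences was not tested. Among striated muscle markers, miR-133a and miR-206 were not detected, miR-133b read from 198.7 to 341 in the aortas and from 101 to 239 in the veins (0.81 ± 0.37, adjusted p = 0.18, and 0.34 without animal 5), and miR-1 read from 13.6 to 86.6 and from 20.9 to 32.6. The summed striated muscle signal ran from 219 to 435 in the aortas and from 123.7 to 277 in the veins.

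Ranked by mean scaled signal over the 3 perfused rats among 55 organs, the vessels stood close together for smooth muscle miRNAs and far apart for some others. This ranking is a description with no test. miR-143 ranked 4 in the aorta and 5 in the vein, and miR-145 likewise, after the bladder, the anterior stomach and the seminal vesicle. miR-140 ranked 2 and 3, behind the trachea at 4460 ± 294 (SD, n = 3). miR-31 ranked 6 and 8, with the duodenum first at 1069 ± 339. In the bladder and the anterior stomach miR-31 read 31.0 ± 3.88 and 47.7 ± 5.81, under both vessels. miR-126 ranked 52 in the aorta and 7 in the vein, where the lung led with 4330 ± 629. miR-196a ranked 5 in the vein, below the femoris muscle (332 ± 14.4), the gastrocnemial muscle (315 ± 14.2), the ileum (301 ± 61.9) and the cecum (299 ± 88.8). It was detected on all 3 arrays in 16 of the 55 organs. White adipose tissue was not among these, with detection on none of its 3 arrays, and miR-196b was not detected there either. The mean of white adipose tissue was 1962 ± 140 for miR-126, 261 ± 36.5 for miR-322 and 247 ± 3.65 for miR-451. In the vein these 3 miRNAs, all called higher there, read 1716 ± 226, 339 ± 57.5 and 189 ± 38.6. The part of surrounding fat in the differences was not tested. miR-196b ranked 4 in the vein, with the cecum first at 830.4 ± 375. miR-451 ranked 9 in the vein (189 ± 38.6) and 31 in the aorta, against 25687 ± 6332 in bone marrow. miR-142-3p ranked 25 in the vein and 54 in the aorta, with the thymus first at 32163 ± 4753.

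**Figure D4:**
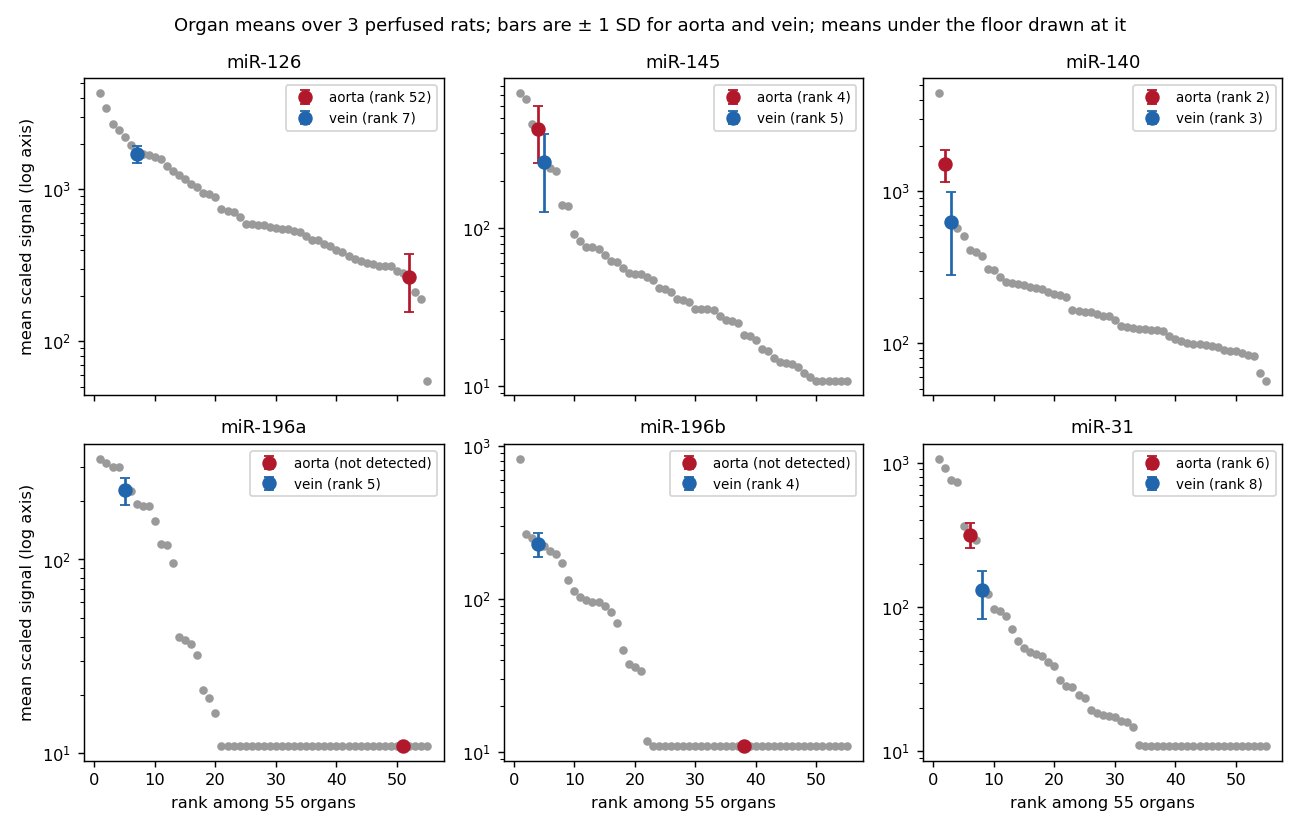
Mean scaled signal (vertical log axes) of 55 organs of the perfused rats against their rank (horizontal axis) for 6 miRNAs, with the aorta in red and the vein in blue and bars of 1 SD (n = 3). The vessels take neighbouring ranks for miR-145 (4 and 5) and miR-140 (2 and 3), and distant ranks for miR-126 (52 and 7). miR-196a and miR-196b rank 5 and 4 in the vein and were not detected in the aorta, whose place among the undetected organs has no meaning, and means under the floor are drawn at it.

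**Figure D5:**
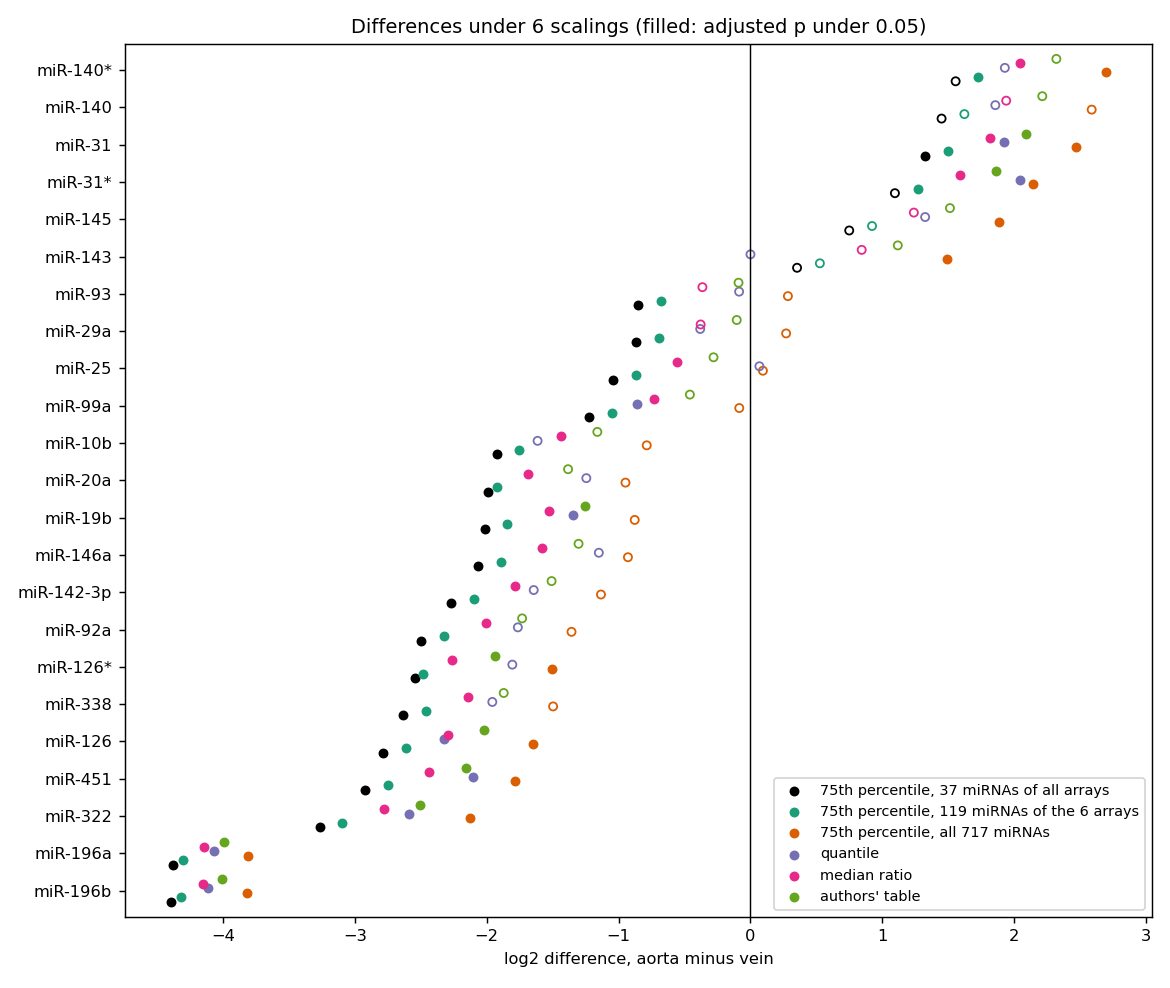
Log2 difference, aorta minus vein (horizontal axis), of 23 miRNAs under 6 scalings, 1 colour each, filled where the adjusted p was under 0.05. All points of miR-196a, miR-196b, miR-322, miR-451 and miR-126 lie below 0 and are filled, those of miR-31, miR-31*, miR-140, miR-140* and miR-145 lie above 0, and miR-25, miR-29a and miR-93 cross 0.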

How the data were processed

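Total RNA of each vessel was labelled with Cy3 and hybridised to a custom rat miRNA array with probes of 2 miRBase releases. The authors read spot intensity with Agilent Feature Extraction 10.7.3, and the deposited intensity files hold background-subtracted signals, 180 arrays in all. The deposited normalized table holds linear intensity too, each array's total gene signals multiplied by a single factor.

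Here outlier spots were left out, spots and then probe sequences were averaged per miRNA, and arrays were set to a common 75th percentile, taken from 37 miRNAs present on all 180. Signals under a floor of 10.8, the median over arrays of the lowest detected signal, were set to it before log2. The 149 miRNAs were tested with limma 3.58.1 in R 4.3.3, with the animal as a block, and adjusted by Benjamini-Hochberg. The number marks 1 animal, and both of its arrays lay on 1 slide. Same-numbered deviations correlated at 0.19, 0.36 and 0.28. The fit was tested on simulated data.

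Named were the 3 markers, up to 12 called miRNAs in each direction by size, the 5 smallest p where fewer than 5 were called, and up to 4 members of each of 30 lists. The miRNAs and lists were chosen with earlier results of these data known. The number of arrays limits the precision. The normexp alternative used the median spot signal.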

Additional observations from a re-analysis of the deposited data

How the results depend on the processing

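All counts here are of limma calls at an adjusted p under 0.05, aorta first and vein second, against 1 and 32 in the report, and where a value moved the cause was not tested unless the setting itself names it. Without the pairing, that is with no replicate block, 1 and 46 miRNAs were called, with a random replicate block 1 and 51, and with the replicate block fitted over 55 organs 6 and 69. Scaling on the 119 miRNAs of the 6 arrays gave 3 and 33, on all miRNAs 41 and 9, quantile normalization 10 and 8, median ratio scaling 16 and 29, and the values normalized by the authors 7 and 10. Normexp gave 2 and 79, a floor 4 times as high 0 and 4, a floor lowered by the same factor 3 and 49, and a trend in the prior variance 2 and 44. With no filter, 717 miRNAs were tested and 0 and 0 were called, with 44 at an unadjusted p under 0.05. With only the 119 miRNAs detected on all 6 arrays tested, 1 and 25 were called. Leaving out 1 animal gave 0 in the aorta and 0 to 20 in the vein. Leaving out 1 animal under median ratio scaling, chosen after seeing the data, gave 0 in the aorta and 0 to 8 in the vein.

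miR-143 and miR-145 were called higher in the aorta in 1 setting, scaling on all miRNAs, at 1.49 and 1.89 (adjusted p = 0.0498 and 0.036). miR-126 kept its sign in all 22 settings and was not called with the higher floor (-2.78, adjusted p = 0.078) or with no filter (-2.78, adjusted p = 0.40). With 1 animal left out it lay between -2.97 and -2.15 over both scalings, and was not called without animal 4 or without animal 5 (adjusted p from 0.054 to 0.16). miR-126* was not called after quantile normalization (-1.81), with the higher floor (-1.01) or with no filter (-2.55). With 1 animal left out it lay between -2.67 and -2.03, and was not called without animal 4 or without animal 5 under either scaling. Signs turned with scaling on all miRNAs for miR-25 (0.094), miR-93 (0.28), miR-10a-5p (0.56), miR-29a (0.27), miR-30a* (0.029), miR-434 (0.0036), miR-127 (0.19), miR-500 (0.24) and miR-872 (0.21). Signs also turned after quantile normalization for miR-25 (0.068) and miR-872 (0.011), and for miR-10a-5p in the authors' table (0.19) and under median ratio scaling without animal 6 (0.032, against -0.77 at the other end). Among 871 values of 40 single miRNAs other than miR-143, miR-145 and miR-126 under all alternatives, 543 stayed on their side of the threshold with the same sign, 55 passed it anew, 260 lost it and 13 changed sign. Aorta signals under the floor limit the differences of the miR-196 family, miR-542-5p, miR-203, miR-20b-5p and miR-224_v15.0 in all 3 animals, and those of miR-126*, miR-20a, miR-146b, miR-378*, miR-434 and miR-872 in at least 1.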
